A study of Rattus norvegicus with 4 samples.

Results

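The genes described here encode the proteins of the mitochondrial ribosome, the machine that translates the few messages encoded in mitochondrial DNA. They were measured in rat adrenal medulla, the catecholamine-secreting core of the adrenal gland. The arrays held total RNA from 2 samples of rats immobilized for 2 h, a restraint stress, and from 2 samples of unstressed rats. The sources used here give no strain, sex or age. Whether a sample was 1 animal or a pool is not stated, and every p-value below therefore reflects only how far these samples differed, which may be a technical spread. The members were all genes with a symbol of the form Mrpl or Mrps and a number, taken from probe sets annotated to a single gene. They came to 73 of 14217 genes on the array, 46 of the large subunit (Mrpl) and 27 of the small subunit (Mrps). The 73 genes had 97 such probe sets, and 18 of the genes had several. The probe set of each gene was chosen by measured level, as the one of highest mean log2 intensity over the 4 arrays, so levels are given below as description only. All 73 were above the filter on dim probe sets, at level percentiles from 67.9 to 98.2 of the array (median 87.0). Mrps10 and Mrps21l were in the gene table but were not analysed here. Mrpl9, Mrpl11, Mrpl24 and Mrps36, also named in the lists by descent used below, were not among the 73 either.

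Mitochondrial ribosomal proteins are encoded in the nucleus, made in the cytosol and imported into the organelle, where they assemble on the mitochondrial ribosomal RNAs. The small subunit binds the message and decodes it, and the large subunit forms peptide bonds and passes the new protein, a core subunit of the respiratory chain or ATP synthase, into the inner membrane. Some of the proteins have bacterial counterparts, and others are found only in mitochondrial ribosomes. In chromaffin cells, the main secretory cells of the medulla, as in other secretory cells, mitochondria supply ATP for filling and releasing vesicles.

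The deposited intensities had a common trimmed mean on the 4 arrays, and their medians were 864 and 827 in the immobilized samples, against 955 and 911 in the unstressed samples. Markers of chromaffin cells were very bright on every array. Their summed intensity over 10 of 11 listed genes was 329768 to 453085 in the immobilized samples and 337199 to 372678 in the unstressed samples, with 1 rise (Slc18a2) and no fall among them. Markers of the adrenal cortex, the steroid-making outer part of the gland, were also very bright. Their sums over 8 of 10 listed genes were 289714 to 401349 in the immobilized samples and 329785 to 372706 in the unstressed samples. Of the 8, 2 rose (Scarb1 and Nr5a1) and 0 fell, but 5 were below 0, with a median log2 change of -0.21. Both immobilized arrays were lower for 3 (Cyp11b1, Cyp11a1 and Cyp21a1) and higher for the 2 that rose. The part of cortex RNA in the results below was not tested. Endothelial markers (5 of 6 listed genes) summed to 29652 to 30361 in the immobilized samples and 32121 to 40957 in the unstressed samples, without overlap. The single genes went both ways: both immobilized arrays were higher for 3 of the 5 and lower for 2, with a median log2 change of 0.36. Flt1 rose and Kdr fell, and the part of endothelial cells was not tested. Sums for Schwann and sustentacular cell markers and for macrophage markers overlapped between the groups. Within the Schwann and sustentacular list, Gfap rose (1.76 on the log2 scale, limma adjusted p = 0.00215) and S100b fell (-0.59, adjusted p = 0.0168). The unstressed mean of Gfap, 538, was under the level of the filter on dim probe sets, 544, so Gfap was tested only through its immobilized values. The part of these cells was not tested either. The ratio of the 3′ to the 5′ probe set of beta-actin was 1.99 and 1.62 in the immobilized samples, against 2.15 and 1.90 in the unstressed samples. In bulk tissue, fewer cells of a type and less RNA per cell cannot be told apart.

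After 2 h of immobilization, messages for mitochondrial ribosomal proteins were mostly lower than in unstressed medulla. With limma and Benjamini-Hochberg adjustment over all 18625 probe sets tested (threshold 0.05), 34 of the 73 genes fell, 1 rose and 38 did not pass. The array as a whole also leaned down: 19.4% of all tested probe sets fell and 11.7% rose, and over 10320 genes with 1 probe set each 21.8% fell and 11.2% rose. Among the 6366 genes in the same range of level as the members, 23.1% fell and 13.7% rose. The members' shares were 46.6% down and 1.37% up. Their median log2 change, immobilized minus unstressed, was -0.43, beside -0.14 over the 10320 genes and -0.12 over the genes of like level.

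In 55 of the 73 genes both immobilized arrays lay below both unstressed arrays, and in 5 both lay above. Over the 10320 genes the immobilized arrays lay below the unstressed ones without overlap in 45.6%, and above in 24.1%. Each of the 4 pairings of an immobilized with an unstressed array gave a member median below that of all tested probe sets: -0.36, -0.49, -0.33 and -0.48 for the members, beside -0.12, -0.09, -0.16 and -0.13 for all. The unstressed arrays also differed from each other in these genes. Unstressed 2 was above unstressed 1 for 67 of the 73 genes, with a median difference of 0.15, while the median over all tested probe sets was -0.01. Immobilized 2 minus immobilized 1 had a member median of 0.00488. With 2 arrays a group, an exact permutation test of a single gene cannot go below p = 0.333, and precision is limited by there being only 4 arrays.

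**Figure D1:**
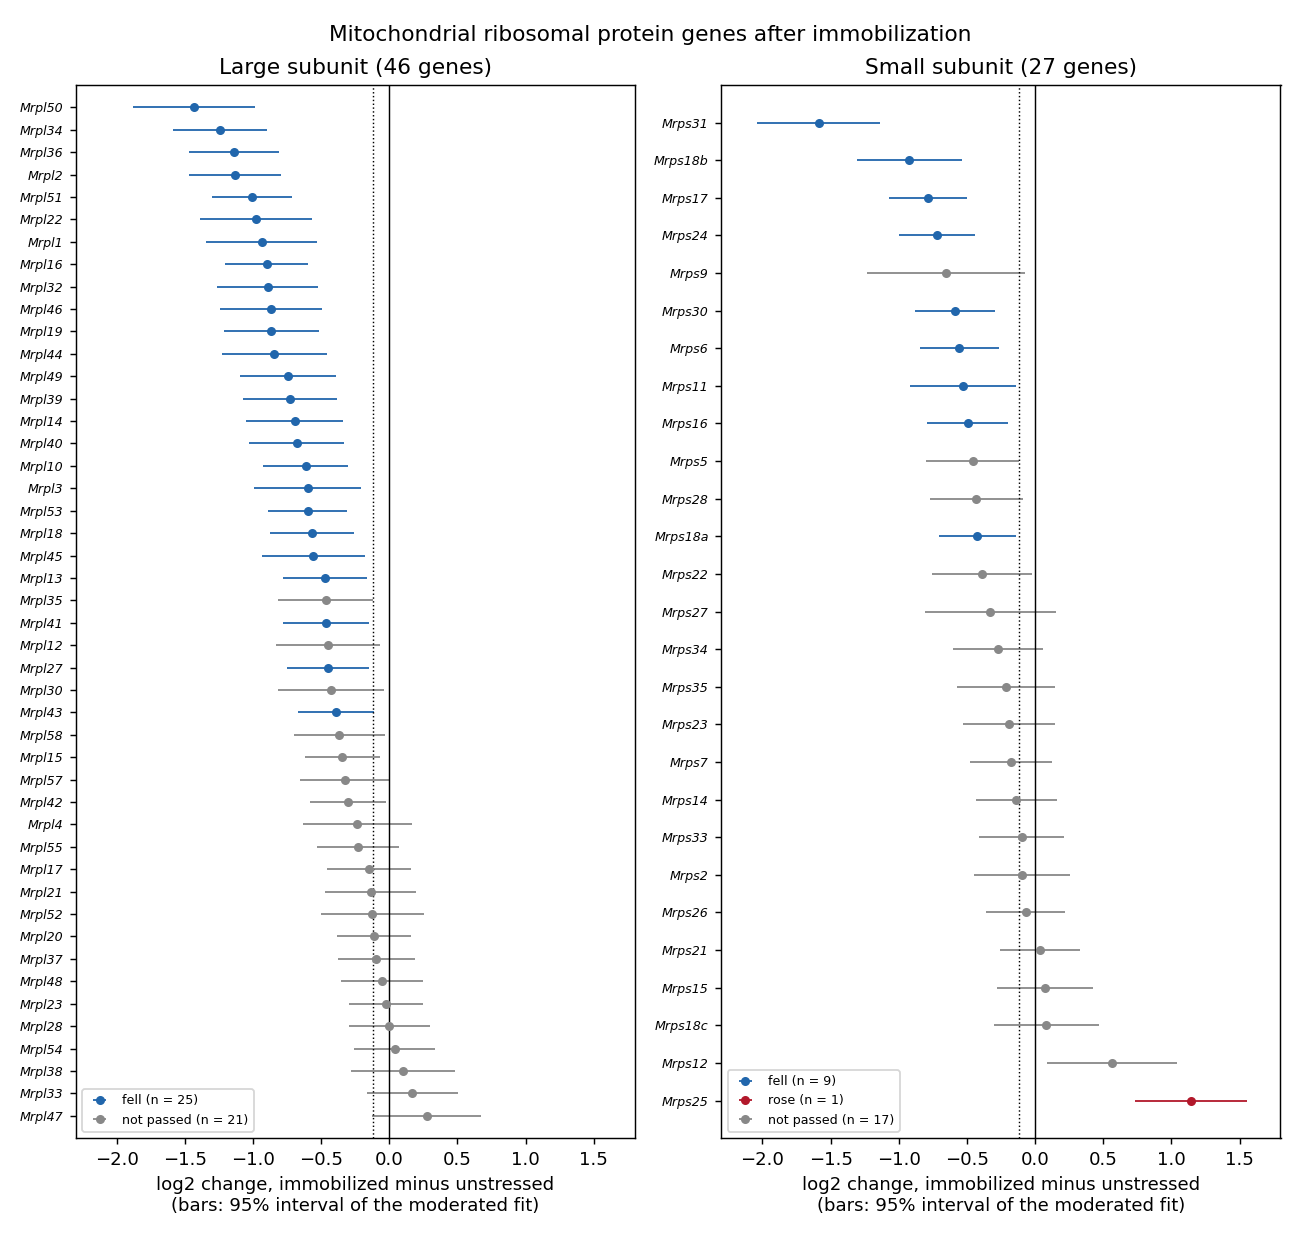
Log2 change, immobilized minus unstressed, of each gene (points) with the 95% interval of the moderated fit (bars), for 46 large-subunit genes on the left and 27 small-subunit genes on the right. The dotted line is the median of all tested probe sets, -0.12; 25 large-subunit and 9 small-subunit genes fell (blue), and Mrps25 rose (red).

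The large subunit leaned further down than the array. Of its 46 genes 25 fell (54.3%), 0 rose and 21 did not pass in limma, beside 23.1% down and 13.7% up among genes of like level. At an unadjusted p under 0.05, 32 were lower and 0 higher. The share at that cut was not counted over the 10320 genes. Without any cut, 41 of the 46 had a log2 change below 0, beside 61.6% of the 10320 genes. Its median log2 change was -0.46, which is 72.5% of the unstressed level, and the changes ranged from -1.43 to 0.27. In 38 genes the immobilized arrays were both lower, in 2 both higher, beside 45.6% and 24.1% of the 10320 genes. Fewer genes fell when 1 immobilized array was left out, which was also so over all tested probe sets. The median was -0.52 without immobilized 1 and -0.44 without immobilized 2.

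Mrpl50, a protein found only in mitochondrial ribosomes, had the largest fall of the subunit. Its intensity was 2683 and 2103 in the immobilized samples, against 5677 and 7284 in the unstressed samples. Both immobilized values were under every unstressed value, and the log2 change was -1.43 (SE 0.19, limma adjusted p = 0.00257). A dimmer probe set of Mrpl50 also fell, by 0.79 on the log2 scale. Mrpl34, the counterpart of a small bacterial protein, read 3283 and 3587 in the immobilized samples and 7437 and 8917 in the unstressed samples. The groups did not overlap, and the log2 change was -1.24 (SE 0.14, adjusted p = 0.00166). Mrpl36, which also has a bacterial counterpart, read 3072 and 3217 in the immobilized samples, against 6462 and 7469 in the unstressed samples. It fell by 1.14 on the log2 scale (SE 0.14, adjusted p = 0.00189), with replicates close together in each group. Mrpl2 belongs to a universal family that lies near the site of peptide bond formation. Its values were 2188 and 2180 in the immobilized samples, against 4678 and 4939 in the unstressed samples, a log2 change of -1.13 (SE 0.14, adjusted p = 0.0021). Mrpl51, found only in mitochondria, read 4923 and 4823 in the immobilized samples and 9342 and 10327 in the unstressed samples. Its log2 change was -1.01 (SE 0.12, adjusted p = 0.00194), and its 3 other probe sets gave -0.89, -0.93 and -0.72, of which the first 2 passed. These 5 genes were the large-subunit falls that passed under every alternative processing tried; the other 20 lost the call in at least 1.

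Mrpl22 belongs to a family that lines the exit tunnel of the new protein. It read 5255 and 3901 in the immobilized samples, against 8393 and 9510 in the unstressed samples, and fell by 0.98 on the log2 scale (adjusted p = 0.0071). Mrpl1 is the protein of the mobile stalk through which spent tRNA leaves. It read 2648 and 2264 in the immobilized samples, against 4224 and 5218 in the unstressed samples, and fell by 0.93 (adjusted p = 0.00819). Mrpl16, with a bacterial counterpart, read 3527 and 3560 in the immobilized samples and 6352 and 6911 in the unstressed samples, a log2 change of -0.90 (adjusted p = 0.00339). Mrpl32 is known for its maturation by a mitochondrial AAA protease before assembly. It read 3737 and 3558 in the immobilized samples, against 6026 and 7635 in the unstressed samples, and fell by 0.89 (adjusted p = 0.00677). Mrpl46, found only in mitochondria, read 2179 and 1973 in the immobilized samples and 3600 and 4001 in the unstressed samples, a log2 change of -0.87 (adjusted p = 0.00798). In all of these the groups were apart. The 15 further falls had log2 changes from -0.86 to -0.39 and adjusted p from 0.00616 to 0.0439. They include Mrpl44 (-0.84), a protein with a fold like that of ribonuclease III, and Mrpl45 (-0.56), which faces the inner membrane.

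Members with no call had intervals that still allow sizeable changes. Among the 21 large-subunit genes that did not pass, log2 changes ran from -0.47 to 0.27, 16 were below 0, and the median SE was 0.14. The brightest probe sets of the subunit were those of Mrpl33, Mrpl17 and Mrpl37. Mrpl33, with a bacterial counterpart, read 28030 and 23611 in the immobilized samples, against 22289 and 23502 in the unstressed samples. The groups nearly touched, and its log2 change of 0.17 had an interval from -0.16 to 0.50 (adjusted p = 0.399). Mrpl17 read 22604 and 21877 in the immobilized samples and 23201 and 26151 in the unstressed samples, a log2 change of -0.15 with an interval from -0.46 to 0.16. With quantile normalization Mrpl17 passed, at -0.30 (adjusted p = 0.0353). Mrpl37, found only in mitochondria, read 14601 and 15422 in the immobilized samples, against 15524 and 16540 in the unstressed samples. Its log2 change was -0.09 (interval -0.38 to 0.19) and turned to 0.04 with each array centred on its median. Mrpl12, which in human cells binds the mitochondrial RNA polymerase, had a log2 change of -0.45 (adjusted p = 0.0739). Mrpl58, a peptidyl-tRNA hydrolase built into the large subunit, had -0.37 (adjusted p = 0.0904).

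The small subunit held both the lowest and the highest change of the family. Of its 27 genes 9 fell (33.3%), 1 rose (3.7%) and 17 did not pass, beside 23.1% down and 13.7% up among genes of like level. At an unadjusted p under 0.05, 13 were lower and 2 higher, a cut that was not counted over all genes. Its median log2 change was -0.33, which is 79.6% of the unstressed level. In 17 genes the immobilized arrays were both lower and in 3 both higher, beside 45.6% and 24.1% of the 10320 genes. Fewer genes fell here too when 1 immobilized array was left out, and the median was -0.32 without immobilized 1 and -0.40 without immobilized 2. With each array centred on its median log2 value, which moved the median of all tested probe sets from -0.12 to 0.02, 4 fell and 2 rose and the median was -0.19. The difference between the subunits was not tested.

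Mrps31, found only in mitochondrial ribosomes, read 1163 and 1305 in the immobilized samples, against 3347 and 4161 in the unstressed samples. Every immobilized value was far below every unstressed one, and the log2 change was -1.59 (SE 0.19, adjusted p = 0.00179), or 33.3% of the unstressed level. Mrps18b read 4680 and 5230 in the immobilized samples and 8211 and 10736 in the unstressed samples, and fell by 0.92 on the log2 scale (SE 0.16, adjusted p = 0.00711). Mrps17, with a bacterial counterpart that binds ribosomal RNA early in assembly, read 9051 and 9975 in the immobilized samples, against 16092 and 16631 in the unstressed samples. Its log2 change was -0.78 (SE 0.12, adjusted p = 0.00443). Mrps31 and Mrps17 were the small-subunit calls that passed under every alternative. Mrps24, the mitochondrial counterpart of a bacterial protein at the mRNA entry site, read 5182 and 5114 in the immobilized samples and 8478 and 8499 in the unstressed samples, a log2 change of -0.72 (adjusted p = 0.0054). Mrps6 read 4770 and 4521 in the immobilized samples, against 6970 and 6691 in the unstressed samples, and fell by 0.55 (adjusted p = 0.016). Mrps11 read 4644 and 6194 in the immobilized samples, against 7671 and 7824 in the unstressed samples, and fell by 0.53 (adjusted p = 0.0477). The immobilized replicates of Mrps11 were wide apart but both under the unstressed ones. Mrps16 read 7195 and 6419 in the immobilized samples, against 9310 and 9831 in the unstressed samples, and fell by 0.49 (adjusted p = 0.0256). Mrps6, Mrps11 and Mrps16 have bacterial counterparts, and none of the 3 passed with median centring.

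Mrps25, found only in mitochondria, was the single rise of the family. It read 12379 and 14796 in the immobilized samples, against 5319 and 7052 in the unstressed samples. Both immobilized values were above both unstressed ones, and the log2 change was 1.14 (SE 0.17, adjusted p = 0.00417), a 2.21-fold increase that reached adjusted p = 0.0616 without immobilized 2. The gene has 1 probe set here and 1 related locus (a pseudogene or like gene) in the RefSeq gene table. Mrps12 is the counterpart of the bacterial protein at the decoding centre. It read 11572 and 17401 in the immobilized samples, against 9061 and 10151 in the unstressed samples. The groups did not overlap, but the immobilized replicates lay far apart, and the log2 change of 0.56 (interval 0.09 to 1.04) did not pass (adjusted p = 0.0737). It passed with median centring (adjusted p = 0.0419), without immobilized 1 (0.0391) and without unstressed 2 (0.0477). Mrps23, found only in mitochondria, read 12026 and 13718 in the immobilized samples and 13416 and 16031 in the unstressed samples. These groups overlapped, with a log2 change of -0.19 (interval -0.53 to 0.15).

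**Figure D2:**
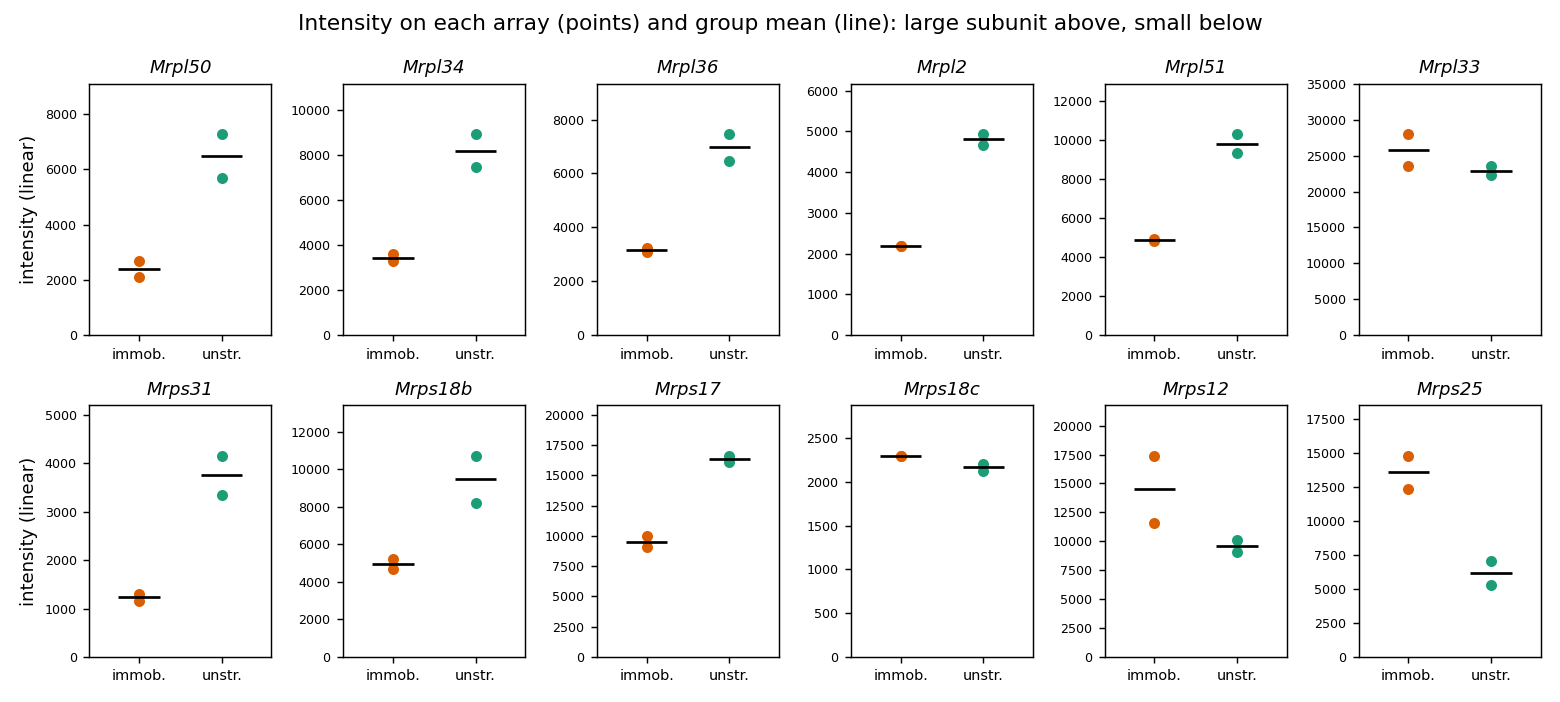
Linear intensity on each array (points) and group mean (line) for 6 large-subunit genes above and 6 small-subunit genes below, immobilized on the left and unstressed on the right of each panel, with a vertical axis from 0 that differs between panels. Mrpl50, Mrpl34, Mrpl36, Mrpl2, Mrpl51, Mrps31, Mrps18b and Mrps17 were lower in both immobilized samples, Mrps25 was higher, and the values of Mrps18c lie between 2125 and 2300.

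The 3 Mrps18 paralogs, which share descent from 1 bacterial protein, gave different values. Mrps18a read 9129 and 9294 in the immobilized samples, against 11779 and 12956 in the unstressed samples, and fell by 0.42 on the log2 scale (SE 0.12, adjusted p = 0.0368). Mrps18b, given above, fell by 0.92. Mrps18c read 2292 and 2300 in the immobilized samples, against 2125 and 2209 in the unstressed samples, a log2 change of 0.08 (interval -0.30 to 0.47, adjusted p = 0.73). Mrps18c was thus higher without overlap by an amount smaller than its SE of 0.16. Mrps18a lost its call with median centring (adjusted p = 0.172). No test compared the paralogs with each other. In the structures of mammalian mitochondrial ribosomes, Mrps18a and Mrps30 sit in the large subunit despite their symbols. Mrps30 read 4231 and 4082 in the immobilized samples, against 6123 and 6391 in the unstressed samples, and fell by 0.59 (SE 0.12, adjusted p = 0.0137). Counted by place in the structure, 27 of 48 large-subunit genes fell (56.25%), with a median of -0.46. Of 25 small-subunit genes 7 fell (28%) and 1 rose (4%), with a median of -0.27. Among all genes of like level 23.1% fell and 13.7% rose, with a median of -0.12, so the small-subunit share of falls was not far from theirs.

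Descent and probe choice were looked at within the family. Among large-subunit genes, 11 of 20 found only in mitochondria and 14 of 26 with a bacterial counterpart fell, with medians of -0.43 and -0.47. Among small-subunit genes, 2 of 10 found only in mitochondria fell (20%) and 1 rose (10%), with a median of -0.24. Of 17 with a bacterial counterpart 7 fell (41.2%), with a median of -0.43. Among all genes of like level 23.1% fell and 13.7% rose, near the shares of the 10. These groups follow the symbols, so Mrps30 and Mrps18a are counted in the small subunit. Differences by descent were not tested. Of 24 further probe sets for the same genes, 15 were bright enough to test. Their log2 change had the sign of the chosen probe set in 14, and the exception was Mrpl52, at 0.20 against -0.12 with no call for either. Where the chosen probe set fell, 6 of 7 others fell too, and the 7 ranged from -0.93 to -0.70. All 7 were of the large subunit, several of them of Mrpl51. No small-subunit fall had another probe set bright enough to test. Where it did not pass, 2 of 8 others fell, for Mrpl57 (-0.48, adjusted p = 0.0493) and Mrps14 (-0.52, adjusted p = 0.041). The RefSeq gene table lists pseudogenes or like genes for 22 members, whose probes could read more than 1 locus; 11 of these fell and 1 rose. Of the 51 without such loci, 23 fell and 0 rose.

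Promoters from RefSeq (rat build GRCr8, 250 bases before to 50 after the annotated start) were found for 59 of the 73 genes. Those of the strongest fall in each subunit, of the rise and of the 3 paralogs are printed 5′ to 3′ on the gene's strand, to show where in each the motifs counted here lie. Capitals mark matches, on either strand, to GCGCANGCG (NRF1), CCGGAAG (the ETS site bound by GABP), AAGATGGCG (YY1), TGACGTCA (the cyclic AMP response element) or CACGTG (the E-box).
Mrpl50 promoter (chr5:68668038-68668337, minus strand): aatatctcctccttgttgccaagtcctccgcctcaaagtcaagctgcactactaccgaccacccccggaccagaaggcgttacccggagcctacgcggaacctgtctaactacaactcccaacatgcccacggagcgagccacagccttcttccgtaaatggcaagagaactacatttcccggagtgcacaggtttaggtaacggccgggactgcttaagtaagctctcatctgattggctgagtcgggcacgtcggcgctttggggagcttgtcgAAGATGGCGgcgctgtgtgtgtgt
Mrps31 promoter (chr16:76324016-76324315, minus strand): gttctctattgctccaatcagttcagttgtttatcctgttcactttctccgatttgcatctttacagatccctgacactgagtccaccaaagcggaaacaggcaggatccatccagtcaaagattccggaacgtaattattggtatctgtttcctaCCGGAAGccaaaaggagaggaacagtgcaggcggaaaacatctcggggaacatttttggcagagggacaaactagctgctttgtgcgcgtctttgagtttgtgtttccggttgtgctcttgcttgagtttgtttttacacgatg
Mrps25 promoter (chr4:126237163-126237462, minus strand): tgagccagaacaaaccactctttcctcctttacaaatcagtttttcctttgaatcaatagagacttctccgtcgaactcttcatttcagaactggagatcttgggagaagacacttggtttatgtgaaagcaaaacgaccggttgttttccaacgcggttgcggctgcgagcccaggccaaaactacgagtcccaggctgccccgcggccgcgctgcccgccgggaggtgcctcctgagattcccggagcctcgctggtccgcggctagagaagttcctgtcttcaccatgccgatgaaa
Mrps18a promoter (chr9:22367331-22367630, minus strand): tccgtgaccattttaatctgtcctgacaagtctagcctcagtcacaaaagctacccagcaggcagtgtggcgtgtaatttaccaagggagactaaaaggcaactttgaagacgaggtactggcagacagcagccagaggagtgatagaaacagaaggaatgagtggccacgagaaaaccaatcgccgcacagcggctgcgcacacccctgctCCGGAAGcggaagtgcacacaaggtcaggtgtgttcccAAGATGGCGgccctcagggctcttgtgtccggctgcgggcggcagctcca
Mrps18b promoter (chr20:2842756-2843055, plus strand): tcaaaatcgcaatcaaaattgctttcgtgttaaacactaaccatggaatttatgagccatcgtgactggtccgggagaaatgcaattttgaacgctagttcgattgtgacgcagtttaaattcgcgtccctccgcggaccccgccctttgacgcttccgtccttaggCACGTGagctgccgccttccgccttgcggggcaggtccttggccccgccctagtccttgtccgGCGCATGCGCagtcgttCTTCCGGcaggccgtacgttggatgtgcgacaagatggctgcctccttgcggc
Mrps18c promoter (chr14:9122857-9123156, minus strand): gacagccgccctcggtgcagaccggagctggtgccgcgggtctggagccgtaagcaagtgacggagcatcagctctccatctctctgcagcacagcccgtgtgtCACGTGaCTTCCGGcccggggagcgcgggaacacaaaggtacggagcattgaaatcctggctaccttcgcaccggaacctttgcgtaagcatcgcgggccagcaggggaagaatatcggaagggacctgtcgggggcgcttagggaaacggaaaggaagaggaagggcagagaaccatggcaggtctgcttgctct

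The Mrpl50 window holds 1 YY1 match, beginning 26 bases past the start, and the Mrps31 window 1 ETS match, beginning 94 bases before it. The Mrps25 window holds none of the letters searched. Mrps18a has an ETS and a YY1 match, Mrps18b has NRF1, ETS and E-box matches, and Mrps18c has ETS and E-box matches. Over the 59 windows, the ETS letters were in 20 (33.9%), beside 8.75% of all 33469 promoters and 14.3% of the 13242 promoters of measured genes. The NRF1 letters were in 11 (18.6%), beside 5.80% and 10.7%. The YY1 letters were in 8 (13.6%), beside 1.73% and 2.93%. The E-box was in 6 (10.2%), beside 6.42% and 8.62%, and the cyclic AMP response element in 1, Mrpl55 (1.69%), beside 1.83% and 2.70%. No match overlapped one of another motif, and the median GC content of the members' windows was 56%, beside 59.7% for measured genes. Of 29 members that fell and 30 others, NRF1 letters were in 7 and 4, ETS letters in 7 and 13, and YY1 letters in 5 and 3. A match is a run of letters in this window and not a shown binding site.

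Some of these genes share a start region with a gene on the other strand. In the GRCr8 annotation, 18 members begin head to head with a neighbour within 1000 bases, and the neighbour was tested for 13. Mrpl46 and Mrps11, whose starts are 234 bases apart, are members on both sides and both fell. Of the 11 tested neighbours that are no members, 4 fell (36.4%), 1 rose and 6 did not pass, with a median log2 change of -0.38, beside 21.8% down and a median of -0.14 over the 10320 genes. Mrpl51 stands 50 bases from Ncapd2, a condensin subunit, which fell by 2.36 on the log2 scale (limma adjusted p = 0.00102). Ncapd2 read 345 and 276 in the immobilized samples, against 1770 and 1536 in the unstressed samples. Its immobilized values were under the level of the filter on dim probe sets, 544, so Ncapd2 was tested only through its unstressed values. Mrpl2 stands 528 bases from Klc4, a kinesin light chain, which fell by 1.01 (adjusted p = 0.00423). Mrps18b and its neighbour differed in direction: Ppp1r10, a regulator of protein phosphatase 1 in the nucleus, starts 588 bases away and read 16048 and 17461 in the immobilized samples, against 4733 and 4079 in the unstressed samples. Ppp1r10 rose by 1.93 (adjusted p = 0.000239) while Mrps18b fell by 0.92. Mrpl30 and Mrps27 did not pass, at -0.43 and -0.33, beside falls of their neighbours Mitd1 (-1.34) and Ptcd2 (-1.43). Mrpl47, the highest change of the large subunit at 0.27 (adjusted p = 0.258), neighbours Ndufb5, a complex I subunit at 0.07; neither passed.

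**Figure D3:**
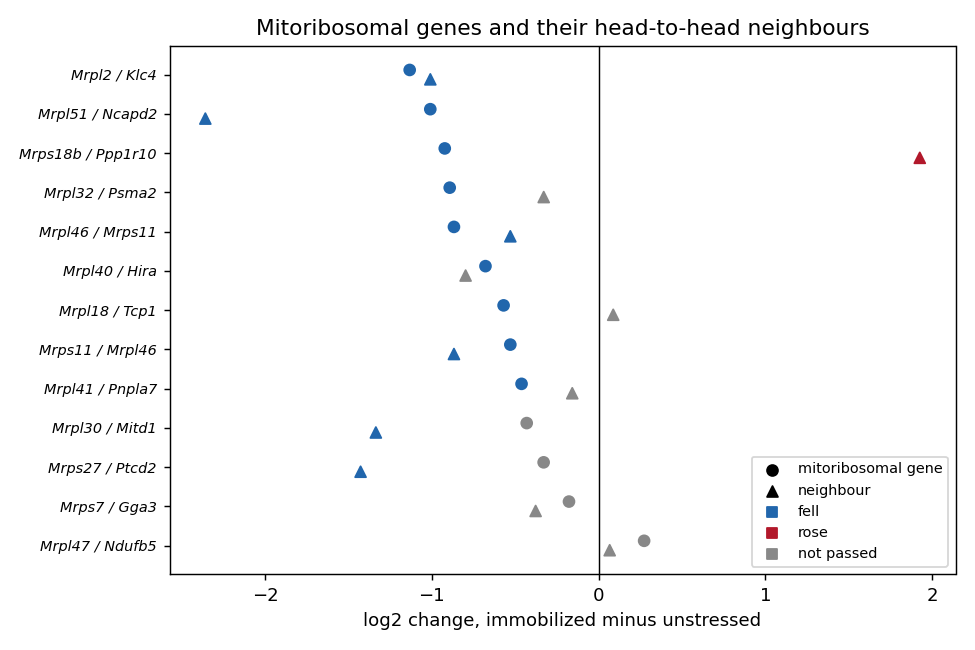
Log2 change, immobilized minus unstressed, of 13 members (circles) and the gene that starts head to head with each within 1000 bases (triangles). Both genes fell for Mrpl2, Mrpl51 and the pair Mrpl46 and Mrps11, which is drawn from each side, and for Mrps18b the neighbour rose by 1.93.

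Other genes of the same machine gave mixed counts, to be read beside the 21.8% of all genes that fell and the 11.2% that rose. Of 5 mitoribosomal proteins with symbols outside the naming rule, 4 fell in limma: Ptcd3 by 1.18, Aurkaip1 by 0.54, Dap3 by 0.46 and Gadd45gip1 by 0.45 on the log2 scale. Ptcd3, a small-subunit protein of the pentatricopeptide repeat type, read 4064 and 4222 in the immobilized samples, against 8359 and 10513 in the unstressed samples. Chchd1 had a log2 change of 0.21 and did not pass (adjusted p = 0.357). Of 23 tested assembly factors and enzymes that modify ribosomal RNA, 12 fell (52.2%) and 1 rose, with a median of -0.54. The largest falls were Mettl17 (-2.48), Gtpbp10 (-2.06), Rpusd3 (-1.47) and Mpv17l2 (-1.46). Mettl17 read 324 and 396 and Gtpbp10 522 and 428 in the immobilized samples. These values were under the level of the filter on dim probe sets, 544, so both genes were tested only through their unstressed values. Mettl17 is needed for small-subunit assembly and Gtpbp10 is a GTPase of large-subunit assembly, and the rise was Fastkd5 (0.90), which acts in processing of mitochondrial RNA. In the members' range of level the list kept 15 genes, of which 7 fell and 1 rose.

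Of 13 tested translation factors, 5 fell (38.5%) and 0 rose, with a median of -0.38 that was -0.24 with median centring and from -0.50 without immobilized 2 to -0.28 without unstressed 2. They were the release factor relative Mtrf1 (-1.60), the initiation factor Mtif2 (-1.46), the formyltransferase Mtfmt (-1.32), the deformylase Pdf (-0.93) and the recycling factor Mrrf (-0.81). The immobilized mean of Mtrf1, 512, was under the filter's level of 544, against an unstressed mean of 1586. The elongation factor Tufm did not pass, at 15423 and 17010 in the immobilized samples and 14862 and 17989 in the unstressed samples. Among 8 translation factors in the members' range of level, 2 fell and the median was -0.10, close to the 23.1% and the median of -0.12 over all genes of that level. Of 18 regulators of mitochondrial DNA expression and biogenesis, 5 fell (27.8%) and 4 rose (22.2%), beside 21.8% and 11.2% of all genes. The median of this list was -0.41, and -0.27 with median centring, and 13 of the 18 were below 0. The falls were the single-stranded DNA binding protein Ssbp1 (-1.43), Mterf1 (-1.26), Mterf2 (-1.20), the mitochondrial RNA polymerase Polrmt (-1.15) and the helicase Twnk (-0.96). The rises were the coactivator Pprc1 (1.43), Myc (1.12), Gabpb1 (0.66), the subunit of GABP that does not itself bind DNA, and Yy1 (0.62). Gabpa, the DNA-binding subunit of GABP, was lower on both immobilized arrays, with a log2 change of -0.42 that did not pass (adjusted p = 0.109). Yy1 read 15923 and 17437 in the immobilized samples, against 10038 and 11646 in the unstressed samples. Nrf1 (0.07) and Tfam (-0.40) did not pass.

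Nuclear-encoded subunits of the respiratory chain and proteins of the cytosolic ribosome gave few calls. The respiratory chain list was picked by symbol, with a pattern that took in complex II and ATP synthase. Of 75 tested respiratory chain subunits, 1 fell (Ndufs3, -0.51) and 1 rose (Ndufa5, 3.24), with a median of 0.02. That median was 0.16 with median centring and -0.11 with quantile normalization, so its sign depends on the scaling. Ndufa5, a complex I subunit, read 48438 and 38253 in the immobilized samples, against 3956 and 5206 in the unstressed samples. The respiratory chain probe sets lay at a median level percentile of 97.8, beside 87.0 for the members, which describes probe brightness and not relative expression. The 39 within the members' range of level had 1 fall, 1 rise and a median of 0.03. Of 44 tested cytosolic ribosomal proteins 0 passed in either direction in limma (0 lower and 1 higher at an unadjusted p under 0.05), with a median of -0.07. That median turned to 0.07 with median centring and to 0.12 without immobilized 2, and was -0.25 without immobilized 1. Their median level percentile was 99.7, and only 2 of these 44 lay in the members' range of level, so the cytosolic set has almost no genes of like brightness. These differences between lists were not tested.

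**Figure D4:**
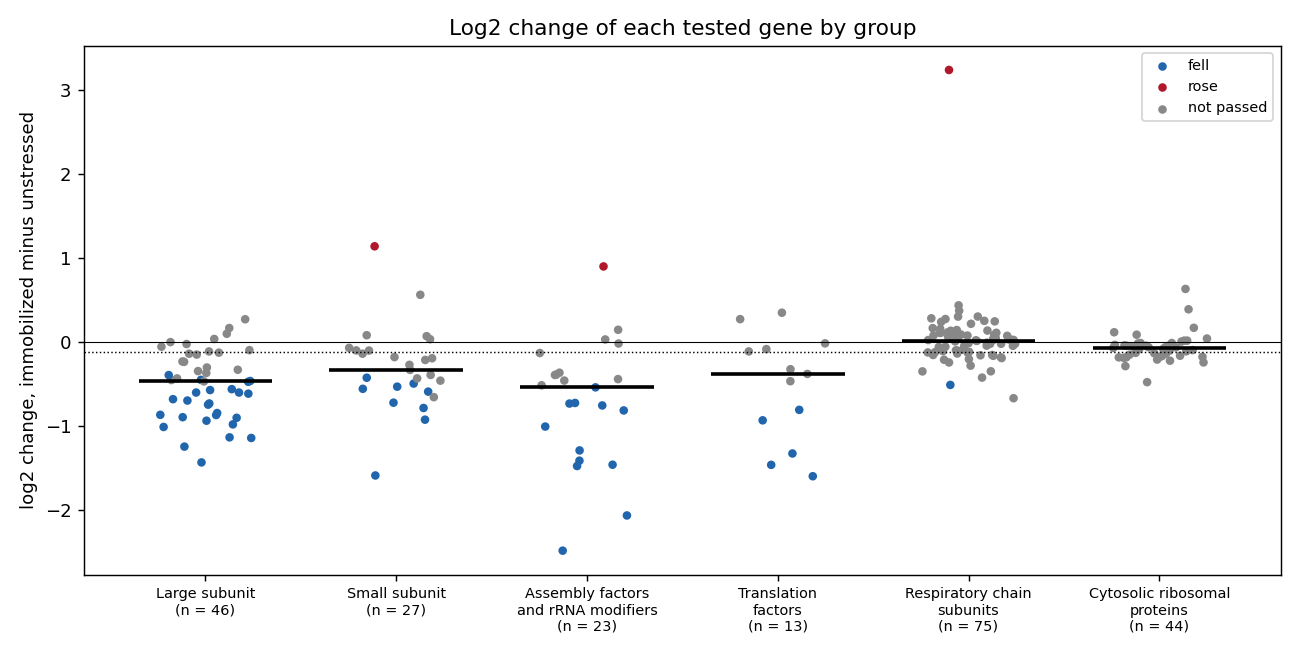
Log2 change, immobilized minus unstressed, of each tested gene (points) in 6 groups, with the group median (bar) and the median of all tested probe sets (dotted line, -0.12). Medians are -0.46 and -0.33 for the large and small subunits, -0.54 for assembly factors, -0.38 for translation factors, 0.02 for the respiratory chain and -0.07 for cytosolic ribosomal proteins.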

How the data were processed

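Each of the 4 deposited columns gives linear intensities for 31099 probe sets; how the authors summarised probes into them is not stated in the sources available for this work. Judged by the values, the deposited columns share a trimmed mean of 2501 after leaving out 2% at each end, and that scaling was kept. Genes were named from GEO's platform annotation, in which 20826 of the 31042 probe sets that are not controls carry 1 symbol, 436 several and 9780 none. Intensities as deposited were taken to log2(intensity + 16), the 12417 probe sets under the 40th percentile of mean level were left out, and 18625 were fitted with limma 3.58.1 in R 4.3.3 (moderated test with an intensity trend, two-sided, Benjamini-Hochberg adjustment, threshold 0.05). Fold changes on this scale understate changes of dim genes. The script was tested on simulated data. Groups came from the sample descriptions, and replicate numbers only name samples. The members and all lists were chosen with earlier results of these data known, so medians and counts over them carry no p-value. Named genes were, per subunit, the 10 largest calls in each direction and the 3 brightest, with the Mrps18 paralogs and Mrps30. Mrpl12, Mrpl30, Mrpl44, Mrpl45, Mrpl47, Mrpl52, Mrpl55, Mrpl57, Mrpl58, Mrps14 and Mrps27 were added after their values were seen. Alternatives changed the scaling, offset, filter, variance model, threshold and choice of probe set, or left out an array.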

Additional observations from a re-analysis of the deposited data

How the results depend on the processing

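The median log2 change of each subunit stayed below 0 under all alternatives tried. For the large subunit, 25 genes fell, 5 to 29 when 1 array was left out, and the median of -0.46 was -0.32 with each array centred on its median and ranged from -0.57 to -0.40 with 1 array left out. For the small subunit, 9 genes fell, 4 with median centring and 2 to 13 with 1 array left out. Its median of -0.33 was -0.19 with median centring and ranged from -0.40 to -0.25 with 1 array left out. The count of small-subunit rises, 1, was 2 with median centring and at a threshold of 0.10, and 0 to 2 with 1 array left out. Mrpl37 turned from -0.09 to 0.045 with median centring and to 0.079 with the mean of its probe sets. Of all tested probe sets that passed, 37.6% rose as deposited, 53.2% with median centring and 44.9% with quantile normalization. Under both scalings 18 of the 25 large-subunit calls and 5 of the 10 small-subunit calls passed. Many calls were lost when 1 immobilized array was left out, among the members as over all tested probe sets. In such a fit a group of 1 array is assumed to vary like the other. Apart from the effect of fewer arrays, the cause was not tested. No paired analysis was possible because the replicate numbers were given in accession order and pair nothing between groups. The members read 1163 to 28030, and 27 Bacillus control probe sets read 2.18 to 257. Whether background or related loci affected the members' values was not tested.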
